A study of Mus musculus with 24 samples.

Results

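miR-1, miR-133 and miR-206 are microRNAs (miRNAs) of striated muscle, and 5 of their mature strands were measured in whole mammary glands of mice. They were chosen by name, as the rows mmu-miR-1a-3p, mmu-miR-206-3p, mmu-miR-133a-3p, mmu-miR-133a-5p and mmu-miR-133b-3p of a table of 1009 miRNAs, and the rule uses no measured value. The choice was nevertheless made with earlier results of these data known. All 5 were among the 544 miRNAs tested, whose mean reached 1 RPM (reads per 1e6 reads on the listed miRNAs) in at least 1 stage. The libraries came from 24 female C57BL/6 mice, an inbred strain, with 6 mice at each stage and no genetic change or drug named. The W10 mice were adults of 10 weeks, and the P18 mice were at pregnancy day 18. The Lac7 mice had lactated for 7 days, and the Inv3 mice were at day 3 of involution, the regression of the gland once milk removal stops. Each library was made from whole homogenate of the abdominal and inguinal mammary glands (pairs 4 and 5), and no cells were sorted. The W10 mice are numbered 1 to 5 and 7, and those of each other stage 1 to 6.

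A miRNA is cut from a hairpin transcript, and either arm of the hairpin can be kept as the mature strand, named 5p or 3p. The strand guides silencing complexes to messenger RNAs, mainly through its seed, the bases 2 to 8 from its 5′ end. miR-1 and miR-133 are transcribed together from the same clusters in skeletal and heart muscle, where miR-1 is known for promoting differentiation and miR-133 for effects on myoblast growth and on splicing factors. miR-206 and miR-133b form a further cluster, which is active in skeletal muscle and its precursors and hardly in the heart. miR-1 and miR-206 share a seed, and miR-133a-3p and miR-133b-3p are nearly identical strands. The mammary gland of the mouse lies in the subcutaneous fat, next to the thin skeletal muscle of the skin and the body wall, while the contractile cells of the gland itself are myoepithelial cells of the epithelium. Fewer cells of a type and less RNA per cell cannot be told apart in whole homogenates.

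Of the 5 strands, 2 had an entry in the RefSeq sequences used here (GRCm38.p6). They are printed because they are the members of the skeletal muscle cluster. Capitals mark the seed.
mmu-miR-206-3p: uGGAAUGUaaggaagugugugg
mmu-miR-133b-3p: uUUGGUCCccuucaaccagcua
The strand of miR-206 lies on the plus strand at chr1:20679055-20679076 and that of miR-133b on the same strand at chr1:20682834-20682855. Their seeds, GGAAUGU and UUGGUCC, place them in different families. The whole hairpins are given next with the mature arm in capitals, since both strands measured here are 3p arms.
Mir206: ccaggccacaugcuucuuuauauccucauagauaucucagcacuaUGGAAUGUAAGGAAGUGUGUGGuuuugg
Mir133b: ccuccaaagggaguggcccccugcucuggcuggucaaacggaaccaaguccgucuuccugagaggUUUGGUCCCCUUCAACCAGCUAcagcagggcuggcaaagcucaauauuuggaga
The mature arm takes bases 46 to 67 of the 73 bases of Mir206 and bases 66 to 87 of the 119 bases of Mir133b. Both genes overlap an exon of Gm28653, a long intergenic noncoding RNA gene on the same strand, and 3686 bases separate them.

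The libraries held 660346 to 1165321 reads on miRNAs, with a median of 933924.5, so that a single read was worth 0.858 to 1.514 RPM and a count of 0 allowed up to 2.57 to 4.54 RPM (3 reads, counting error only). Every value came back as a whole number of reads within 0.011 RPM. All pairs of libraries of a stage differed beyond counting noise, so each mouse was counted once. RPM is a share of the reads, and levels of different miRNAs also depend on how well each strand is ligated and copied, so levels were compared between miRNAs only as a description. At Lac7, mice 4 and 5 stood below the other 4 mice in every member.

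miR-1a-3p was found in every library. At W10 the lowest value was 213.97 RPM (mouse 3), the median 1246 and the highest 2325 (mouse 4), and the mean was 1196 ± 830 RPM (SD, n = 6). The mean fell to 153 ± 162 at P18, where the mice ranged from 19.7 to 409 around a median of 79.3. At Lac7 the mean was 527 ± 495, but mice 4 and 5 had 15.96 and 24.23 RPM while the other 4 had 523.48 to 1357. At Inv3 the mice ranged from 24.7 to 160.01 with a median of 30.7 and a mean of 54.1 ± 52.5. All Inv3 mice lay below all W10 mice, and the P18 and Lac7 mice overlapped those of both stages.

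miR-206-3p was the least abundant member. At W10 it ranged from 18.9 (mouse 7) to 112 RPM (mouse 1) with a median of 77.4, and the mean was 67.6 ± 36.9 (SD, n = 6). P18 mice had 2.07 to 66.7 RPM with a median of 18.2, and Lac7 mice had 0 to 69.1 RPM with a median of 18.8. Lac7 mice 4 and 5 had 0 and 3.03 RPM, and the other 4 had 14.83 to 69.06. At Inv3 it was close to its limit of detection, with no read in mice 1 and 4 and at most 5 reads in any mouse, 10 reads in all. The highest Inv3 value, 4.76 RPM, was below the lowest W10 value.

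miR-133a-3p, the most abundant member, ranked 21 of 1009 miRNAs by mean level in W10 mice, 71 in P18, 54 in Lac7 and 96 in Inv3 mice. W10 mice ranged from 2066.20 (mouse 3) to 20489 RPM (mouse 4) with a median of 9527 and a mean of 9618 ± 6759 (SD, n = 6). P18 mice ranged from 167.76 to 1912.20 with a median of 343, so all were below the lowest W10 mouse. At Lac7, mice 4 and 5 had 87.78 and 87.83 RPM, and the other 4 had 1655, 1662, 1760 and 3417. At Inv3 the mice ranged from 180 to 742.92 RPM with a median of 228.

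miR-133a-5p, the other arm of the same hairpins, was present at far lower levels. The W10 mice ranged from 52.67 to 680.05 RPM (median 252.88) and the P18 mice from 4.14 to 97.70 (median 17.94). The Lac7 mice ranged from 2.66 to 294.25 RPM (median 107.3) and the Inv3 mice from 2.96 to 28.57 (median 5.51). Its lowest and highest W10 mice were those of miR-133a-3p. In Lac7 mice 4 and 5 it rested on 2.66 and 4.54 RPM.

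miR-133b-3p had a mean of 479 ± 371 RPM (SD, n = 6) at W10, with mice from 70.23 to 1124. It fell to a mean of 28.2 ± 38.5 at P18, where mouse 6 had 97.70 RPM and mouse 3 a single read (1.07 RPM). The Lac7 mean was 62.7 ± 59.0, with no read in mouse 4 and 1.51 RPM in mouse 5 against 54.77 to 157.64 in the other 4. The Inv3 mean was 15.0 ± 12.2, with mice from 5.12 to 39.05 RPM. The counting of near-identical strands is uncertain, and how the authors' assignment divided reads between miR-133a-3p and miR-133b-3p is not given in the sources used here.

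**Figure D1:**
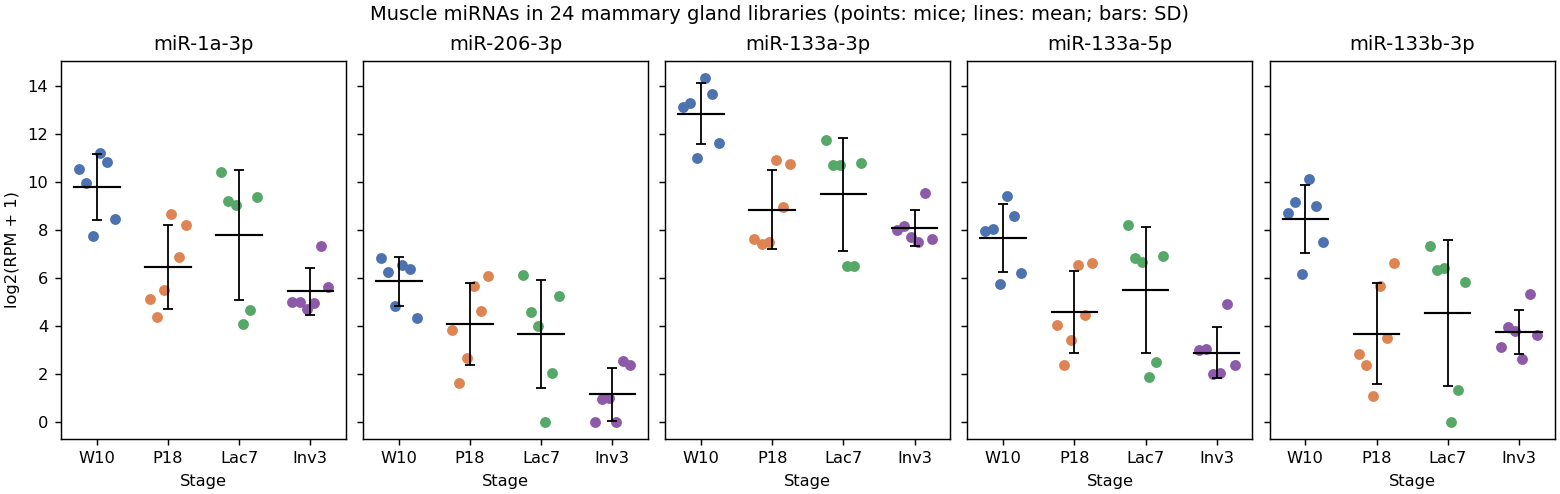
Each point is a mouse, with log2(RPM + 1) on the vertical axis and the 4 stages on the horizontal axis, 1 panel for each of the 5 strands; lines are stage means and bars SD over 6 mice. In every panel the W10 mice lie above all Inv3 mice, and at Lac7 mice 4 and 5 lie apart below the other 4.

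Together the 5 strands took 0.243% to 2.47% of the reads of a W10 library, with a median of 1.16%. The median share was 0.0462% (0.0198% to 0.251%) in P18 libraries, 0.242% (0.0106% to 0.530%, the lowest being 0.0106% in mouse 4 and 0.0121% in mouse 5) in Lac7 libraries and 0.0280% (0.0218% to 0.0975%) in Inv3 libraries. The order of the means at W10 was miR-133a-3p, miR-1a-3p, miR-133b-3p, miR-133a-5p and miR-206-3p. These levels are shares of reads, and mature strands are of nearly equal length.

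Between adult and pregnant glands, 4 of the 5 strands fell by the test (P18 against W10). The test was limma over all 544 miRNAs, two-sided, and a call needs a Benjamini-Hochberg adjusted p under 0.05 together with a log2 fold change of at least 1 in either direction. Here 20.0% of all miRNAs tested were called lower. The SEs and intervals of limma use 1 spread per strand, shared by the 4 stages, and do not measure the spread of only the mice compared. That spread differed by stage, and the SD of log2(RPM + 1) of miR-133a-3p was 0.75 at Inv3 and 2.36 at Lac7. On the log2(RPM + 1) scale, which understates the change of low values, the limma difference was -4.00 (SE 0.80, adjusted p = 0.000191) for miR-133a-3p, whose mean was 12.4-fold lower. It was -4.77 (SE 1.02, adjusted p = 0.000354) for miR-133b-3p, -3.33 (SE 0.91, adjusted p = 0.00367) for miR-1a-3p and -3.09 (SE 0.91, adjusted p = 0.00689) for miR-133a-5p. The difference of miR-206-3p was -1.78 with a 95% interval of -3.45 to -0.10 and did not pass the adjusted limit (limma, adjusted p = 0.0827). Without P18 mouse 6, which had the most miR-206-3p of its stage, it was -2.18 and was called (limma, adjusted p = 0.0361). The limma fit of only these 12 libraries (adjusted p = 0.0378) and a pseudocount of 10 RPM (-1.22, adjusted p = 0.0295) also gave a call. So did limma with the number of the mouse as a term (adjusted p = 0.0253). miR-206-3p was not called by edgeR, by DESeq2 or by exact permutation of the mice (adjusted p = 0.12 in the permutation). Nor was it called with size factors, a pseudocount of 0.1 RPM or no filter on low values. Leaving out any other mouse gave no call (limma, adjusted p up to 0.215). All mice of P18 lay below all mice of W10 only for miR-133a-3p, against 16.9% of all miRNAs tested. The median difference of the 5 strands was -3.33, and that of all miRNAs tested was -0.32.

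From pregnancy to lactation (Lac7 against P18) none of the 5 strands was called in limma, where 30.1% of all miRNAs tested were called in either direction, and none of the 5 had an unadjusted p under 0.05. The differences were 1.34 for miR-1a-3p (95% interval -0.52 to 3.20), 0.93 for miR-133a-5p (-0.93 to 2.79), 0.85 for miR-133b-3p (-1.24 to 2.95), 0.63 for miR-133a-3p (-1.02 to 2.28) and -0.42 for miR-206-3p (-2.09 to 1.26). Without Lac7 mouse 4, miR-1a-3p was called higher (2.08, adjusted p = 0.0442 in limma), and it was also called by edgeR (1.96, adjusted p = 0.0443) and DESeq2 (2.11, adjusted p = 0.0297) on the recovered reads.

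From lactation to involution (Inv3 against Lac7) 3 of the 5 strands were called lower in limma, against 10.3% of all miRNAs tested. miR-206-3p differed by -2.52 (SE 0.82, adjusted p = 0.0129), miR-133a-5p by -2.61 (SE 0.91, adjusted p = 0.0190) and miR-1a-3p by -2.36 (SE 0.91, adjusted p = 0.0331) in limma. miR-133a-3p differed by -1.40 (95% interval -3.05 to 0.25) and miR-133b-3p by -0.79 (-2.89 to 1.30) without being called. The values of all 5 overlapped between the stages, since Lac7 mice 4 and 5 lay within or below the range of the Inv3 mice. The count rested on the method, with 5 called by edgeR, 4 by DESeq2, 1 by limma on only these 12 libraries and 0 by an exact permutation test of each miRNA over the 924 splits of 6 mice against 6. Over all miRNAs tested, in either direction, exact permutation called 131, limma on only these 12 libraries 137 and DESeq2 141. The limma fit of all 24 libraries called 146, and edgeR slightly more. The background thus moved little between methods while the count of strands moved from 0 to 5. In the exact permutation test 1 of the 5, miR-206-3p, had an unadjusted p under 0.05 (0.0433). Without Lac7 mouse 1, miR-133a-5p and miR-1a-3p were not called (limma, adjusted p = 0.0637 and 0.103). The call of miR-1a-3p was also lost without Lac7 mouse 2, 3 or 6 or Inv3 mouse 1, 2, 3 or 4 (limma, lowest adjusted p = 0.0562). Without Lac7 mouse 4 or 5, miR-133a-3p was called (limma, adjusted p = 0.0335 and 0.0330).

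Against the adult gland, Inv3 was lower in all 5 strands. limma gave -4.76 (SE 0.80, adjusted p = 3.59e-05) for miR-133a-3p, -4.77 (SE 0.91, adjusted p = 0.000158) for miR-133a-5p, -4.71 (SE 1.02, adjusted p = 0.000566) for miR-133b-3p, -4.36 (SE 0.91, adjusted p = 0.000374) for miR-1a-3p and -4.71 (SE 0.82, adjusted p = 5.1e-05) for miR-206-3p. Here 19.5% of all miRNAs tested were called lower. The Inv3 mice lay below all W10 mice in each of the 5 strands, where 12.1% of all miRNAs tested did so. The mean of miR-133a-3p was 31.0-fold lower at Inv3. All 5 were also called in the exact permutation test (adjusted p = 0.0144 for each), by edgeR and by DESeq2, and with any 1 mouse left out. The median difference of the 5 was -4.71, against -0.41 for all miRNAs tested.

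In lactation, 4 strands were lower than in the adult gland (Lac7 against W10), where limma called 39.7% of all miRNAs tested lower. The differences were -3.37 (SE 0.80, adjusted p = 0.000654) for miR-133a-3p, -3.91 (SE 1.02, adjusted p = 0.00153) for miR-133b-3p, -2.20 (SE 0.82, adjusted p = 0.0201) for miR-206-3p and -2.16 (SE 0.91, adjusted p = 0.0374) for miR-133a-5p, all in limma. miR-1a-3p had -1.99 (95% interval -3.86 to -0.13) and missed the limit (limma, adjusted p = 0.0540). No strand had all its Lac7 mice below all its W10 mice, while 29.4% of all miRNAs tested did. Only miR-133a-3p and miR-133b-3p were called by edgeR, by DESeq2, with values scaled by size factors and by the exact permutation test. Without Lac7 mouse 4 or 5, miR-206-3p was lost (-1.46 and -1.87, limma, adjusted p = 0.0797 and 0.0539), and miR-133a-5p was lost without either of them (adjusted p = 0.136 and 0.122) or W10 mouse 1, 2, 4 or 5 (adjusted p from 0.0599 to 0.0958). miR-133a-5p was also lost with no filter on low values (limma, adjusted p = 0.0505) and in the fit of only these 12 libraries (adjusted p = 0.0634). Without W10 mouse 3 or 7 or Lac7 mouse 1, 2, 3 or 6, miR-1a-3p was called as well (limma, adjusted p from 0.0177 to 0.0421).

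Between pregnancy and involution (Inv3 against P18), miR-206-3p alone was called, at -2.94 (SE 0.82) with adjusted p = 0.00793 in limma, and 9.74% of all miRNAs tested were called lower. The other differences were -1.69 for miR-133a-5p (95% interval -3.55 to 0.17), -1.03 for miR-1a-3p (-2.89 to 0.84), -0.76 for miR-133a-3p (-2.41 to 0.89) and 0.06 for miR-133b-3p (-2.03 to 2.15). The Inv3 and P18 mice overlapped in all 5. The comparisons that include a stage share its libraries, so the 6 comparisons are not independent of each other. Scaling the libraries by DESeq2 size factors moved the median of all miRNAs tested, from -0.317 to -0.117 for P18, from -0.663 to -0.311 for Lac7 and from -0.411 to -0.0988 for Inv3, each against W10.

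**Figure D2:**
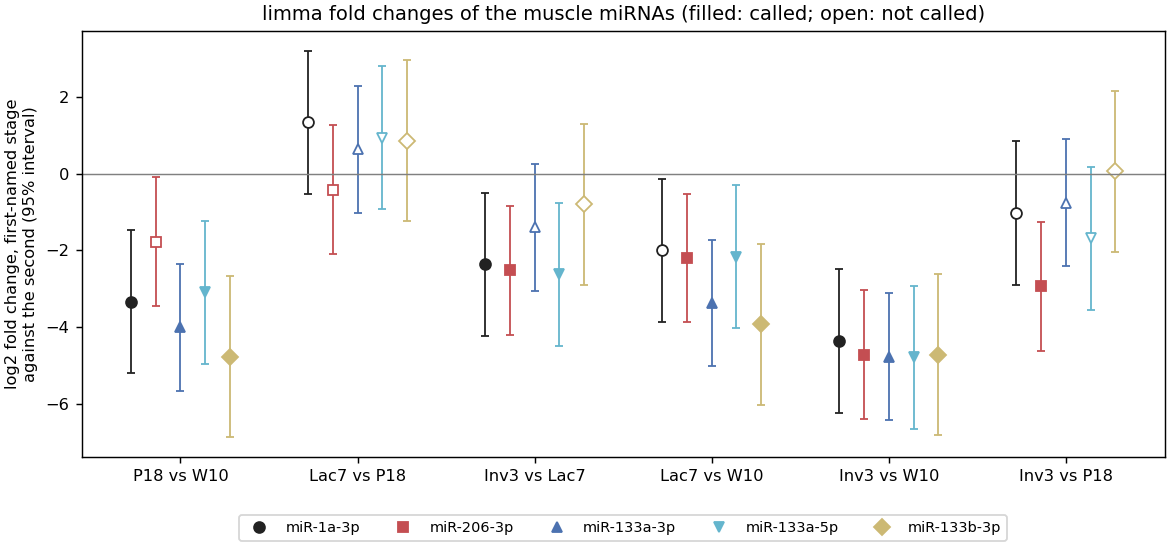
Points are limma differences in log2(RPM + 1) of the first-named stage against the second for the 5 strands, bars are 95% intervals, and filled points were called. The intervals use a spread shared by all stages. All 5 points of Inv3 against W10 are filled and lie between -4.77 and -4.36, and none of the points of Lac7 against P18 is filled.

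The mice of a stage differed far more in these strands than in most miRNAs. Over the 285 miRNAs whose mean reached 10 RPM, the median SD of log2(RPM + 1) between mice lay between 0.26 (Lac7) and 0.41 (Inv3). The 5 strands had SDs of 1.02 to 1.41 at W10 and 1.63 to 2.10 at P18. At Lac7 the SD was 3.06 for miR-133b-3p, 2.70 for miR-1a-3p, 2.64 for miR-133a-5p, 2.36 for miR-133a-3p and 2.26 for miR-206-3p, larger than in 97.9% to 99.6% of the 285 miRNAs. At Inv3 the SDs of the 4 strands other than miR-206-3p were 0.75 to 1.08, larger than in 85.6% (miR-133a-3p) to 96.5% (miR-133a-5p) of them. miR-206-3p had an SD of 1.10 there from 0 to 5 reads per library, and the part of counting error in it was not tested. The highest Lac7 mouse had 38.9 times the miR-133a-3p and 85.0 times the miR-1a-3p of the lowest, against 9.92 and 10.9 times at W10.

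**Figure D3:**
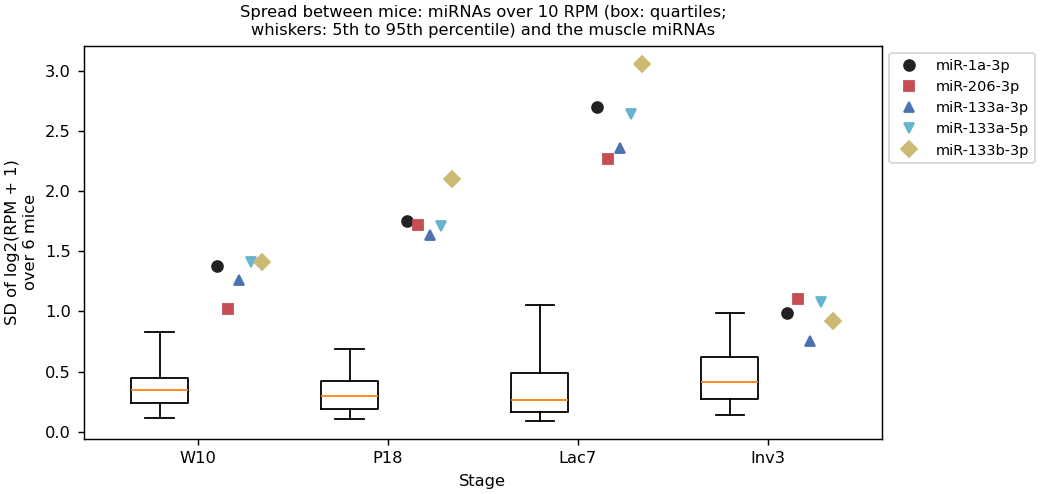
Boxes give the quartiles, and whiskers the 5th to 95th percentile, of the SD of log2(RPM + 1) over the 6 mice of a stage for 285 miRNAs over 10 RPM, and coloured points are the 5 muscle strands. The points reach 2.26 to 3.06 at Lac7, where the median miRNA has 0.26.

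The same mice were high or low in all strands. Lac7 mouse 1 was the highest and Lac7 mouse 4 the lowest of its stage for all 5, and Inv3 mouse 5 was the highest for all 5. W10 mouse 4 was the highest and W10 mouse 3 the lowest for 4 of the 5. P18 mouse 2 was the lowest for 4, and P18 mouse 6 the highest for 3. After subtracting the stage means from log2(RPM + 1), the 10 pairs of strands had Pearson correlations of 0.884 to 0.984 over 24 mice, with a median of 0.948, and Spearman correlations of 0.868 to 0.982. The p of r from 100000 permutations within stages was 1e-05, the smallest they can give, or 2e-05 (adjusted over the 10 pairs, 1.43e-05 or 2e-05), and that of rho was at most 4e-05 (adjusted, also 4e-05). The highest correlation was that of both arms of miR-133a (0.984), which come from the same hairpins, and the lowest that of miR-206-3p with miR-133a-3p (0.884).

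Leaving out the 2 mice farthest from the median lowered the correlations to 0.854 to 0.969. Without the 6 Lac7 mice, whose values split into 4 high and 2 low, they were 0.826 to 0.969. Within W10 alone the 10 pairs had r of 0.802 to 0.997, within P18 0.870 to 0.977 and within Inv3 0.521 to 0.982. The lowest of these was miR-206-3p with miR-133a-5p at Inv3, where miR-206-3p rested on 0 to 5 reads. Within Lac7 they were 0.940 to 0.999, over 4 high and 2 low mice.

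The strands did not keep the same ratio to each other through the stages. Each was divided by miR-133a-3p of the same library, which removes the scaling of the library, and 11 of 24 stage comparisons of the ratio had an adjusted p under 0.05 (two-sided exact permutation test over 924 splits, smallest possible p 0.00216, adjusted over the 24). These tests used log2 ratios of RPM + 1. miR-1a-3p stood at a median of 11.2% of miR-133a-3p (9.81% to 16.7%) in W10 mice, 19.4% (11.7% to 24.7%) in P18 mice, 33.4% (18.2% to 39.7%) in Lac7 mice and 14.4% (10.8% to 24.8%) in Inv3 mice. The Lac7 mice, including mice 4 and 5, lay above all W10 mice. The log2 ratio was 1.37 higher at Lac7 than at W10 (exact permutation, adjusted p = 0.0130), and the differences were 0.67 for P18 against W10, 0.70 for Lac7 against P18 and -0.97 for Inv3 against Lac7 (adjusted p = 0.0260 for each). P18 against W10 was lost without W10 mouse 2, 4 or 7, and Lac7 against P18 without Lac7 mouse 1, 2 or 6 (exact permutation, adjusted p = 0.0519 in each case).

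miR-133a-5p stood at a median of 2.66% of its partner arm miR-133a-3p (2.29% to 3.32%) in W10 mice, 5.12% (2.47% to 7.89%) in P18 mice, 6.40% (3.03% to 8.61%) in Lac7 mice and 2.33% (1.44% to 3.85%) in Inv3 mice. Against W10, its log2 ratio was 0.91 higher at P18 (adjusted p = 0.0208) and 1.21 higher at Lac7 (adjusted p = 0.0130). Inv3 differed by -1.22 from Lac7 (adjusted p = 0.0130) and by -0.92 from P18 (adjusted p = 0.0223), all by exact permutation. W10 and Inv3 differed by -0.01 (exact permutation, adjusted p = 0.946). With a pseudocount of 10 RPM the Inv3 values, at most 30 reads, were set largely by the pseudocount, and that difference became 1.08 (adjusted p = 0.00742) and the difference from P18 -0.32 (adjusted p = 0.263).

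miR-206-3p stood at a median of 0.680% of miR-133a-3p at W10 (0.452% to 1.33%) and 3.46% at P18 (1.23% to 6.84%). Its log2 ratio was 2.22 higher at P18 than at W10 (exact permutation, adjusted p = 0.0130). Lac7 had a median of 1.69% with mice from 0% to 3.45%, 1.17 above W10 on the log2 scale (exact permutation, adjusted p = 0.0378). This call was lost with a pseudocount of 0.1 RPM (0.56, adjusted p = 0.550) and without W10 mouse 2, 4, 5 or 7 or Lac7 mouse 1, 2, 5 or 6 (exact permutation, adjusted p from 0.0567 to 0.0756). Without Lac7 mouse 5, Lac7 lay below P18 (-1.32, adjusted p = 0.0312), and without Inv3 mouse 6, Inv3 lay below Lac7 (-1.46, adjusted p = 0.0260, exact permutation). Inv3 had a median of 0.399% from at most 5 reads per library, a log2 difference of -2.17 from P18 (adjusted p = 0.0223), and with a pseudocount of 10 RPM the difference was -0.58 (exact permutation, adjusted p = 0.242). The median of miR-133b-3p as a share of miR-133a-3p was 5.04% in W10, 2.54% in P18, 3.86% in Lac7 and 5.16% in Inv3 mice, and none of its 6 comparisons passed (lowest adjusted p = 0.0719, exact permutation). Without P18 mouse 6, its ratio was lower at P18 than at W10 (-0.98, adjusted p = 0.0297) and higher at Inv3 than at P18 (1.04, adjusted p = 0.0312, exact permutation).

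**Figure D4:**
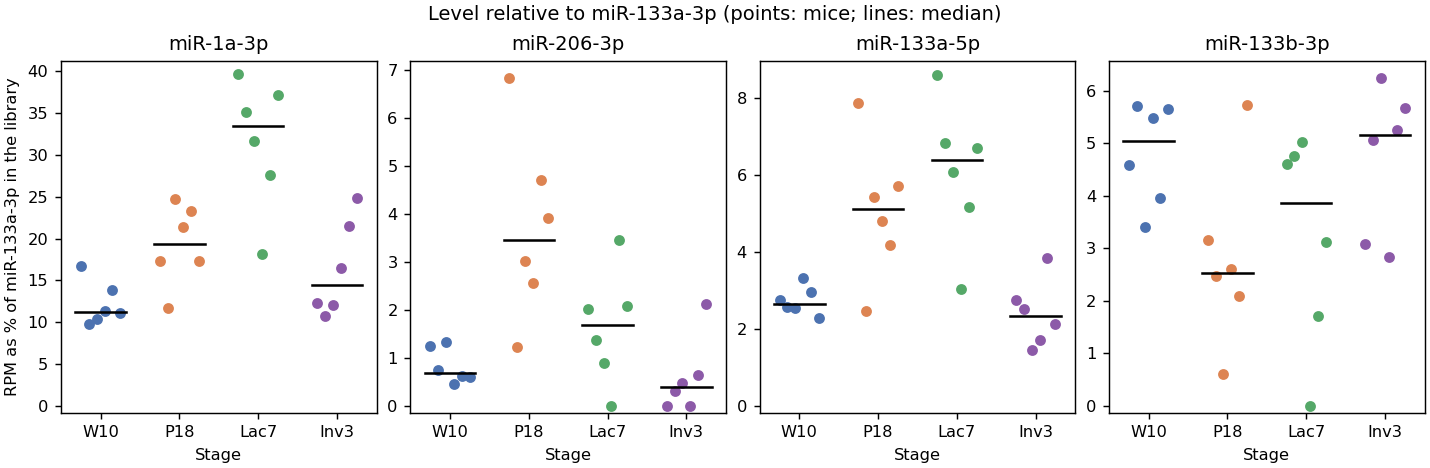
Each point is a mouse and gives the RPM of a strand as a percent of miR-133a-3p in the same library, with lines at the stage medians. For miR-1a-3p the median rises from 11.2% at W10 to 33.4% at Lac7 and lies at 14.4% at Inv3.

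Other miRNAs linked to striated muscle were looked up from a list of 14, which holds the other arms of these hairpins and miR-1b, miR-208, miR-499 and miR-486. Of these, 7 were in the table and 4 were tested, of which limma called 3 lower at P18, 2 at Lac7 and 3 at Inv3 against W10, beside 20.0%, 39.7% and 19.5% of all miRNAs tested. miR-1b-5p was by far the most abundant, with a mean of 9753 ± 6897 RPM (SD, n = 6) in W10 mice, 1276 ± 1405 in P18, 4723 ± 4502 in Lac7 and 474 ± 465 in Inv3 mice. limma called it lower at P18 (-3.46, SE 0.93, adjusted p = 0.00331) and at Inv3 (-4.26, SE 0.93, adjusted p = 0.00062) than at W10, and all its Inv3 mice lay below all its W10 mice. It was also called lower at Inv3 than at Lac7 in limma (-2.41, SE 0.93, adjusted p = 0.0338), but not by exact permutation (adjusted p = 0.123). miR-499-5p, encoded in a slow and cardiac myosin gene, had 40 reads in all 24 libraries together, and miR-208b-3p, also of a myosin gene, had 2. miR-486a-5p, known from both muscle and red blood cells, had a mean of 62.5 ± 19.9 RPM in W10 mice, 14.9 ± 5.03 in P18, 17.1 ± 6.72 in Lac7 and 31.5 ± 10.9 in Inv3 mice. limma called it lower at P18 than at W10 (-1.99, SE 0.29, adjusted p = 1.84e-06) and higher at Inv3 than at P18 (1.03, SE 0.29, adjusted p = 0.00769). miR-1a-1-5p, the other arm of Mir1a-1, had 42 reads in all, of which 38 were in the 6 W10 mice and none at P18.

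The relation of miR-1b-5p to miR-1a-3p was looked at after its values had been seen and is a description. miR-1b-5p had 5.63 to 9.89 times the RPM of miR-1a-3p in each of the 24 libraries, with a median of 8.57, while miR-1a-3p itself ranged from 15.96 to 2325 RPM. Lac7 mice 4 and 5, with 155.61 and 221.10 RPM of miR-1b-5p, had the same ratio as the others at that stage (8.55 to 9.75 over the 6 mice). In the GENCODE annotation of GRCm38, Mir1a-2 (chr18:10785481-10785552, minus strand, 72 bases) lies wholly within Mir1b (chr18:10785446-10785567, plus strand). Both are within introns of Mib1, on the plus strand, and of Mir133a-1hg, annotated as antisense and on the minus strand. Whether the counting used the strand of the reads is not given in the sources used here, and without strand the reads of overlapping genes cannot be told apart. Mir133a-1 (chr18:10782909-10782976, minus strand) lies 2504 bases from Mir1a-2 and is also within introns of Mib1 and Mir133a-1hg. The second copies, Mir1a-1 (chr2:180389048-180389124, plus strand) and Mir133a-2 (chr2:180398379-180398482, plus strand), overlap no other annotated gene and are 9254 bases apart. The values of miR-1a-3p and miR-133a-3p do not separate the 2 copies of each gene.

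**Figure D5:**
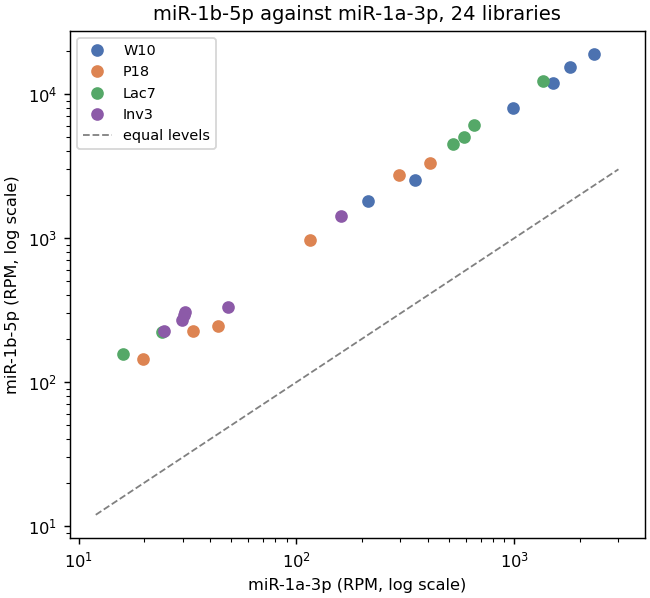
Each point is a library, with miR-1a-3p on the horizontal and miR-1b-5p on the vertical axis, both in RPM on log scales, coloured by stage, and the dashed line marks equal levels. All 24 points lie above the line, at 5.63 to 9.89 times.

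Lists of miRNAs of other cell types were compared with miR-133a-3p over the 24 mice after subtracting stage means, since the mix of tissue may vary between mice. The list of other muscle-linked miRNAs holds other arms of the members' hairpins and is mostly miR-1b-5p, whose gene overlaps Mir1a-2. Its reads may not be separate from those of miR-1a-3p, which itself varied with miR-133a-3p (r = 0.981). Its correlation is therefore not an independent comparison like those of the cell types. It had r = 0.988 and rho = 0.983 (permutation, adjusted p = 0.0001 over the 10 lists), and 0.979 without the 2 mice farthest from the median. The nerve list (miR-9-5p and miR-124-3p) had r = 0.552 (permutation, adjusted p = 0.0460) and rho = 0.454 (adjusted p = 0.189), and r was 0.339 without the 2 farthest mice and between 0.243 (P18) and 0.771 (Lac7) within single stages. The lymphocyte list had r = -0.435 (permutation, adjusted p = 0.0928) and the myeloid list r = -0.502 (permutation, adjusted p = 0.107), with -0.164 and -0.057 without the 2 farthest mice. The lists for epithelium, endothelium, fibroblasts, smooth muscle, red blood cells and liver had r between -0.183 and 0.182 (permutation, adjusted p from 0.456 to 0.789). Within single stages r took both signs in each of these lists, and these values were not tested. Endothelium had -0.737 at W10 and 0.689 at P18, red blood cells 0.554 at W10 and -0.833 at Lac7, and smooth muscle -0.423 at Lac7 and 0.854 at Inv3.

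At Lac7 the low mice stood apart in further lists, looked at after the values had been seen. The myeloid miRNAs (miR-223-3p and both arms of miR-142a) summed to 11961 and 11992 RPM in mice 4 and 5 and to 3939 to 4796 RPM in the other 4. The lymphocyte sum was 838 and 666 RPM in mice 4 and 5 and 424 to 540 in the others. The red blood cell sum was 1022.8 and 1072.2 RPM in mice 4 and 5 and 919.38 to 972.84 in the others. The nerve sum was lower in mouse 4, at 29.26 RPM, and 50.56 to 63.06 RPM in mice other than 4 and 5. Mouse 5, at 49.97 RPM, lay below these by less than a single read, worth 1.51 RPM in its library. The epithelial sum (the miR-200 family, miR-203, miR-205 and miR-375, 8 strands) was 122870 and 124140 RPM in mice 4 and 5, within the 120050 to 139760 RPM of the other 4. Mice 4 and 5 also lay within the range of the other 4 in the endothelium, fibroblast, smooth muscle and liver sums. The part of these lists in the muscle values was not tested.

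The other lists are given by their summed levels and calls, with no test between lists. The epithelial sum had a median of 22351 RPM in W10, 65551 in P18, 125200 in Lac7 and 48326 in Inv3 mice. At Inv3 it was 27815 to 33376 RPM in mice 1, 2 and 5 and 63275 to 81765 RPM in mice 3, 4 and 6. Of its 8 strands, limma called 5 higher and none lower in P18 against W10 mice, where 7.54% of all miRNAs tested were called higher. In Inv3 against Lac7 mice it called 6 lower and 1 higher, beside 10.3% and 16.5% of all miRNAs tested. The smooth muscle sum (both arms of miR-143 and miR-145a) had a median of 93239 RPM in W10, 146550 in P18, 140500 in Lac7 and 238330 in Inv3 mice, and 2 of its 4 strands were called higher at Inv3 than at W10 (5.51% of all miRNAs tested), none lower. The fibroblast sum had a median of 86439 RPM in W10, 54442 in P18, 22654 in Lac7 and 50692 in Inv3 mice, with 2 of 4 strands called lower at P18 and all 4 at Lac7 against W10, beside 20.0% and 39.7% of all miRNAs tested. The myeloid sum had medians of 43746 (W10), 18977 (P18), 4760.5 (Lac7) and 16910 RPM (Inv3), with 3 of 3 strands called lower at Lac7 than at W10, again beside 39.7%. The nerve sum had medians of 167 (W10), 67.5 (P18), 54.7 (Lac7) and 58.8 RPM (Inv3). Its median was highest in W10 mice, as were those of the fibroblast, myeloid, lymphocyte and red blood cell sums and of the muscle strands. Of the 2 nerve strands, limma called 1 lower at each later stage against W10, beside 20.0% (P18), 39.7% (Lac7) and 19.5% (Inv3) of all miRNAs tested. Since RPM is a share, a rise in these miRNAs lowers the share of the others, and its part in the muscle values was not tested.

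The miRNAs most like miR-133a-3p between mice were found among 280 others over 10 RPM by the correlation of log2(RPM + 1) after subtracting stage means, as a description over 24 libraries. The first was miR-1b-5p (0.988), followed by miR-338-3p (0.639), miR-3065-5p (0.592), miR-511-3p (0.592) and miR-9-5p (0.539). The median over the 280 was -0.03, and only miR-1b-5p was over 0.9.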

How the data were processed

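Small RNA of 24 mouse mammary gland homogenates was extracted with a mirVana kit, made into QIAseq miRNA libraries and sequenced on an Illumina NextSeq. The authors assigned the reads to miRBase with QuickMIRSeq and deposited RPM, reads per 1e6 reads on the listed miRNAs. The submitters' processing notes also name Trimmomatic 0.36, cutadapt, FastQC, MultiQC and GRCm38. The labels give day 7 for lactation and day 3 for involution, which the design text of the series swaps. Whole reads were recovered from the smallest step of each library. Whether molecular identifiers were counted is not given in the sources used here.

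A single limma 3.58.1 fit (R 4.3.3, lmFit, eBayes with a trend) over 24 libraries used log2(RPM + 1) of the 544 miRNAs whose mean reached 1 RPM in at least 1 stage. Ratios were compared by exact permutation. Correlations used 100000 permutations within stages. The alternatives were pseudocounts of 0.1 and 10 RPM, a filter at 100 RPM or none, the 12 libraries alone, a replicate block, DESeq2 size factors, edgeR 4.0.16 and DESeq2 1.42.0 on the recovered reads, and each mouse left out. Exact permutation of each miRNA and correlations without the Lac7 mice were added after the data were seen. The calling was tested on simulated counts that had the same spread setting for all miRNAs and stages. That test does not cover strands whose spread is as large or as unequal between stages as here. The remaining steps ran in scipy 1.17.1, pandas 2.3.3, numpy 2.4.6, matplotlib 3.10.9 and python 3.11.15.

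The members and the lists were chosen with earlier results of these data known. All 5 members are named, together with the listed muscle-linked miRNAs whose mean reached 10 RPM in a stage and the 5 miRNAs over 10 RPM most correlated with miR-133a-3p. miR-499-5p, miR-208b-3p and miR-1a-1-5p fall outside this rule and were named after their values were seen. Replicates are separate mice by their labels.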

Additional observations from a re-analysis of the deposited data

Results flagged for a closer look

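Dixon's test of the highest and lowest mouse in each of the 20 groups of 6 mice (5 strands at 4 stages) singled out Inv3 mouse 5 in 4 groups. It had 742.92 RPM of miR-133a-3p, 28.57 RPM of miR-133a-5p, 39.05 RPM of miR-133b-3p and 160.01 RPM of miR-1a-3p, each the highest value of that stage. The gap to the next mouse took 0.815, 0.834, 0.727 and 0.824 of the whole range, above the 95% critical value for 6 values. These gaps are in RPM and not in log2(RPM + 1), the scale of the limma tests. By chance about 1 in 20 groups is singled out if values follow a normal distribution, which was not tested for RPM. The 4 groups share the same mouse and strands that vary together. All 5 strands were still called lower at Inv3 than at W10 without this mouse. Lac7 mice 4 and 5 were not singled out by this test, which compares a mouse with its nearest neighbour, and they lie close to each other.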

How the results depend on the processing

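For Inv3 against W10, the 5 strands were called under each alternative that tested them. The count of strands called moved elsewhere. For Lac7 against P18 it was 1 with edgeR, 1 with DESeq2 and 0 to 1 with each mouse left out. For Inv3 against Lac7 it was 1 in the fit of 12 libraries, 5 with edgeR, 0 with exact permutation and 1 to 4 with each mouse left out. For Lac7 against W10 it was 2 with size factors, 2 with edgeR, 2 with DESeq2, 2 with exact permutation and 2 to 5 with each mouse left out. For Inv3 against P18 it was 0 with the filter at 100 RPM, which removes miR-206-3p from the miRNAs tested. With each mouse left out it was 4 to 5 for P18 against W10. The number of ratios that differed was 9 to 13 of 24 with each mouse left out, against 11.

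Over all miRNAs, in the order P18 against W10, Lac7 against P18, Inv3 against Lac7, Lac7 against W10, Inv3 against W10 and Inv3 against P18, limma called 150, 164, 146, 273, 136 and 77. A pseudocount of 10 RPM gave 88, 82, 79, 152, 69 and 34, and the filter at 100 RPM, which tests fewer miRNAs, gave 69, 67, 66, 99, 59 and 32. For Lac7 against P18 and Lac7 against W10, size factors, edgeR, DESeq2 and exact permutation called fewer than limma and more than either of these settings.

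Signs turned only for differences that were not called in limma or exact permutation. miR-206-3p at Lac7 against P18 was 0.069 with edgeR, 0.22 with DESeq2 and -0.91 to 0.31 with each mouse left out. miR-133b-3p at Inv3 against P18 was -0.18 with a pseudocount of 10 RPM, -0.71 with edgeR, -0.67 with DESeq2 and -0.46 to 0.65 with each mouse left out. With a pseudocount of 0.1 RPM the ratio to miR-133a-3p turned for miR-206-3p at Inv3 against W10 (-1.41), and for miR-133b-3p at Lac7 against P18 (-0.21) and Inv3 against W10 (-0.054). With a pseudocount of 10 RPM it turned for miR-206-3p at Inv3 against Lac7 (0.18), miR-133a-5p at Inv3 against W10 (1.08), and miR-133b-3p at P18 (0.18) and Lac7 (0.37) against W10. That pseudocount also brought the ratios at Inv3 against W10 past the limit, at 0.64 for miR-1a-3p, 2.16 for miR-206-3p and 0.75 for miR-133b-3p. With each mouse left out, the ratios at Inv3 against W10 ranged from -0.29 to 0.25 for miR-206-3p, -0.12 to 0.089 for miR-133a-5p and -0.037 to 0.16 for miR-133b-3p, and that of miR-133b-3p at Lac7 against P18 from -0.030 to 0.52. The causes were not tested.

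The replicate block, the number of the mouse as a term, gave 5, 0, 3, 5, 5 and 1 strands called in the same order, against 4, 0, 3, 4, 5 and 1. Same-numbered mice were no more alike than others on average. With stage means subtracted, the correlation averaged -0.013 over the 33 same-numbered pairs of libraries (-0.605 to 0.414, 13 of them over 0.1). It averaged 0.00062 over the 183 other pairs (65 of them over 0.1). An average cannot exclude a link between some mice of the same number. Depth limits miR-206-3p most, with 10 reads over the 6 Inv3 libraries.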
